A study of Mus musculus with 6 samples.

Results

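Expression of 10 regulators of naive pluripotency was followed in mouse embryonic stem (ES) cells with and without the zinc-finger gene Zscan10. The genes were Pou5f1, Sox2, Nanog, Zfp42, Sall4, Tbx3, Prdm14, Gbx2, Tcl1 and Utf1. They were taken by gene symbol, and each symbol matched 1 of the 23244 loci measured, so the set holds 10 loci in all. RNA depleted of ribosomal RNA was sequenced in 6 libraries. The 3 control libraries came from ES cells in which both Zscan10 alleles were floxed (f/f, flanked by loxP sites for Cre) but not deleted, and their titles carry the mark -Tx, which the labels do not explain. The 3 null libraries came from Zscan10-null (KO) ES cells that had been subcloned. Clone, genotype and any treatment behind the mark cannot be told apart in this design. Nothing in the labels says that the libraries of a group were separate cultures, and the p-values then speak only of the spread among these libraries, which may be technical.

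Naive pluripotency is the state of the early epiblast and of the ES cells derived from it, in which a cell can still form every lineage of the body. It rests on a core of 3 transcription factors, OCT4 (the product of Pou5f1), SOX2 and NANOG, which bind each other's genes and many shared enhancers. Around this core stand further factors that respond to leukaemia inhibitory factor (LIF), WNT and PI3K signals or hold back the genes of later stages. The levels of the outer factors can differ widely between ES cells that all express the core. ZSCAN10 has been described as an ES cell factor that acts with OCT4 and SOX2, and the series asks, by its title, whether pluripotency is maintained without it.

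Zscan10 itself checked the labels. It stood at 44.2, 43.0 and 41.9 FPKM (fragments scaled to transcript length and sequencing depth) in the control libraries against 5.49, 4.43 and 5.47 FPKM in the null libraries. The ES cell markers were present in every library, with Esrrb at 142 to 176 FPKM and Klf4 at 29.7 to 37.5 FPKM besides the genes described here. The files hold no counts. Ratios of low values between libraries put the depth at 0.986 to 1.09 times that of control replicate 1, for which about 7720000 fragments were estimated from 490 genes. Over the 11480 loci whose mean reached 1 FPKM, limma called 25.2% at a Benjamini-Hochberg adjusted p of 0.05. In the null libraries 12.8% of the tested loci were higher and 12.4% were lower. Without control replicate 1 or control replicate 2 the number called dropped from 2894 to 1741 and 1697. Between the groups, 44.1% of tested loci did not overlap. These shares are the background against which the counts below are to be read.

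The promoters of core and outer genes were also described at the level of sequence, where the octamer core did not divide the core from the outer genes. The RefSeq table of GRCm38.p6 (mm10) held a start site for 7 of the 10 genes, and gave none for Sall4, Tbx3 and Prdm14. In the 250 bases before each start, matches were sought on both strands to the octamer core ATGCAAA and to the joint OCT4 and SOX2 element, which is the SOX core CATTGT, any base N and then ATGCAAA. The first strings hold such letters and are shown because these genes include members of the core and the most abundant outer gene, and Pou5f1 is shown beside them as the core gene without one. Each is the 200 bases before the start, on the gene's own strand, 5′ to 3′. Capitals mark the joint element in Nanog, the octamer core in Sox2, the longer octamer ATGCAAAT (in reverse) in Zfp42 and the nuclear receptor site AGGTCA in Pou5f1. The Nanog string is chr6:122707289-122707488 (plus strand), the Sox2 string chr3:34649795-34649994 (plus), the Zfp42 string chr8:43307010-43307209 (minus) and the Pou5f1 string chr17:35505832-35506031 (plus).
Nanog: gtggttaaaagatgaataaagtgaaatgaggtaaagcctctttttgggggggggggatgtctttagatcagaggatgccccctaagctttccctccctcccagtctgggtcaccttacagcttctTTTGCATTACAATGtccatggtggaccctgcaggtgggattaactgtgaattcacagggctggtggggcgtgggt
Sox2: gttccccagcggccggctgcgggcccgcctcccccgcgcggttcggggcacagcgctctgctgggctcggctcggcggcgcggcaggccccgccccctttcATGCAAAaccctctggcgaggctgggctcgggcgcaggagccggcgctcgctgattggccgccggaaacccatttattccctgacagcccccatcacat
Zfp42: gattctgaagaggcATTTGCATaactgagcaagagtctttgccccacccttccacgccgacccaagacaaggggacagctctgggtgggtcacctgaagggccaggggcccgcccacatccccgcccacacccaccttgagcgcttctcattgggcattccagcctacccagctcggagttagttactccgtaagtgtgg
Pou5f1: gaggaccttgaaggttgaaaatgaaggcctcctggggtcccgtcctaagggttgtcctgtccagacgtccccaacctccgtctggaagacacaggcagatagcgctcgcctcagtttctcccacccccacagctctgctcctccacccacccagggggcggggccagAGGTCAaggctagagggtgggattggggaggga

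The joint element was found in 2 of 32817 windows of this length, and both were windows of Nanog, at its alternative starts. In the string above it lies in reverse, 75 to 62 bases before the start. The octamer core was in 4.13% of all windows and in those of Nanog, Sox2 and Zfp42, where in Zfp42 it forms part of the longer octamer, found in 1.6% of windows. AGGTCA was in 14% of windows. Outside the printed strings it also lay in the windows of Sox2 and Nanog, in reverse. Each core gene thus had a match to AGGTCA, and no outer gene with a window had one. Gbx2, Tcl1 and Utf1 had no octamer core in the window. The GC box GGGCGG, present in 32.7% of windows, was found for every one of the 7 genes except Nanog. A match is a description of the letters and shows no binding.

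The members spanned a wide range of levels. By FPKM, a measure per length, the control order was Zfp42, Pou5f1, Sox2, Nanog, Sall4, Utf1, Tcl1, Gbx2, Tbx3 and Prdm14. In that order the values of Sall4 and Utf1 overlapped, as did those of Gbx2 and Tbx3, and every other pair of neighbours was separate over the 3 libraries. In the null libraries Pou5f1 and Zfp42 overlapped at the top, Sox2 overlapped Nanog, Sall4 overlapped Utf1, and Tbx3 stood apart above Gbx2. The sum over the 10 genes was 1964 to 2006 FPKM in control and 1835 to 1966 in null libraries, or 0.282% to 0.291% and 0.276% to 0.29% of all FPKM. Of the 10 genes, which all passed the minimum level, 2 were higher by limma, 4 were lower and 4 did not pass, which makes 6 called against a background of 25.2%. The median log2 fold change of the members was -0.05 and that of all tested loci -0.003. The groups did not overlap for the same 6 genes that were called, against 44.1% of all tested loci.

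**Figure D1:**
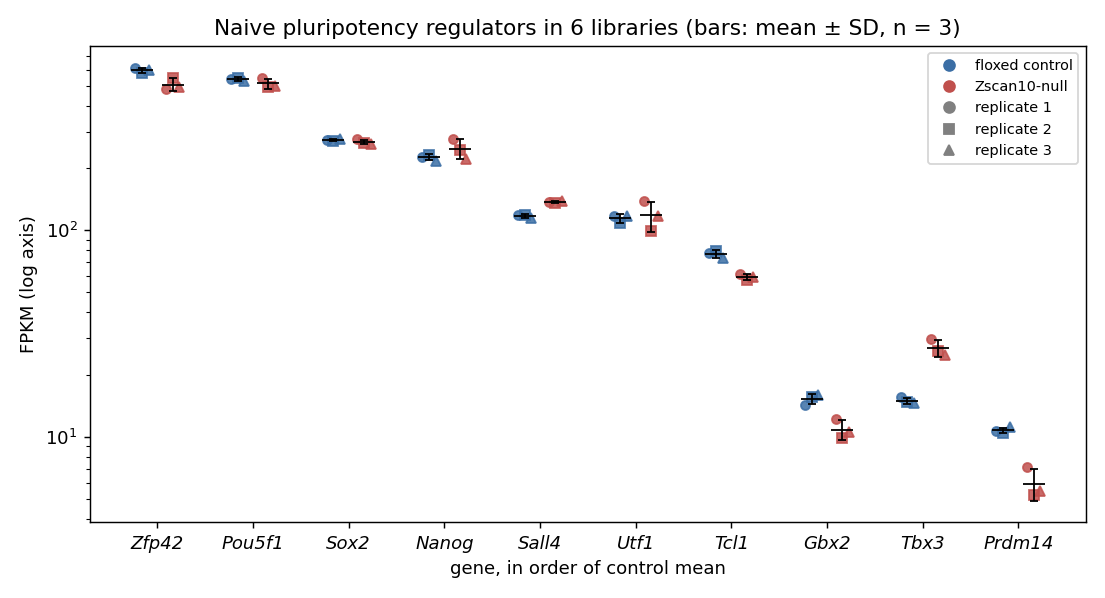
FPKM on a log axis for each gene in each library, control in blue and null in red, with replicate number by marker shape and bars for the mean ± SD (n = 3). Pou5f1, Sox2, Nanog and Utf1 overlap between the groups, while Tbx3 lies higher and Prdm14, Gbx2 and Tcl1 lie lower in all 3 null libraries.

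Pou5f1 encodes the POU-domain factor OCT4, without which the inner cell mass and ES cells are lost to trophectoderm. Its levels were 542, 548 and 525 FPKM in control and 546, 494 and 501 FPKM in null libraries. Null replicate 1 lay within the control range and the other null libraries below it, so the groups overlapped. The log2 fold change on log2(FPKM + 1), the scale of all fold changes given here, was -0.07 with a standard error (SE) of 0.05 (limma adjusted p = 0.302). The 95% interval of the fold was 0.885 to 1.03.

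Sox2 encodes the HMG-box partner of OCT4 on the joint element. The control libraries read 273, 269 and 276 FPKM, the null libraries 276, 264 and 263 FPKM. The interval of the fold was 0.93 to 1.04 around a log2 fold change of -0.03 (SE 0.03, limma adjusted p = 0.617). Sox2 lies within the noncoding gene Sox2ot on the same strand, which stood at only 0.939 and 1.13 FPKM, far below Sox2.

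Nanog encodes the homeodomain factor that holds ES cells in self-renewal and whose level varies from cell to cell. The control libraries had 227, 232 and 217 FPKM and the null libraries 276, 246 and 221 FPKM. Null replicates 1 and 2 were above all controls, and null replicate 3 was within their range. The log2 fold change was 0.13 (SE 0.08, limma adjusted p = 0.245), with an interval of the fold of 0.968 to 1.24. The spread was wide in the null libraries, with a coefficient of variation (CV) of 11.1% against 3.27% in control.

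Utf1, a chromatin-associated gene that OCT4 and SOX2 activate through an enhancer, had the widest interval of the 4 that did not pass. It stood at 117, 108 and 117 FPKM in control. In the null libraries the values were 138, 99.1 and 117 FPKM, so they lay above, below and within the control range. The fold interval was 0.862 to 1.22 (log2 fold change 0.04, SE 0.11, limma adjusted p = 0.826), and the sign turned with quantile normalization (-0.02) and without null replicate 1 (-0.08).

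**Figure D2:**
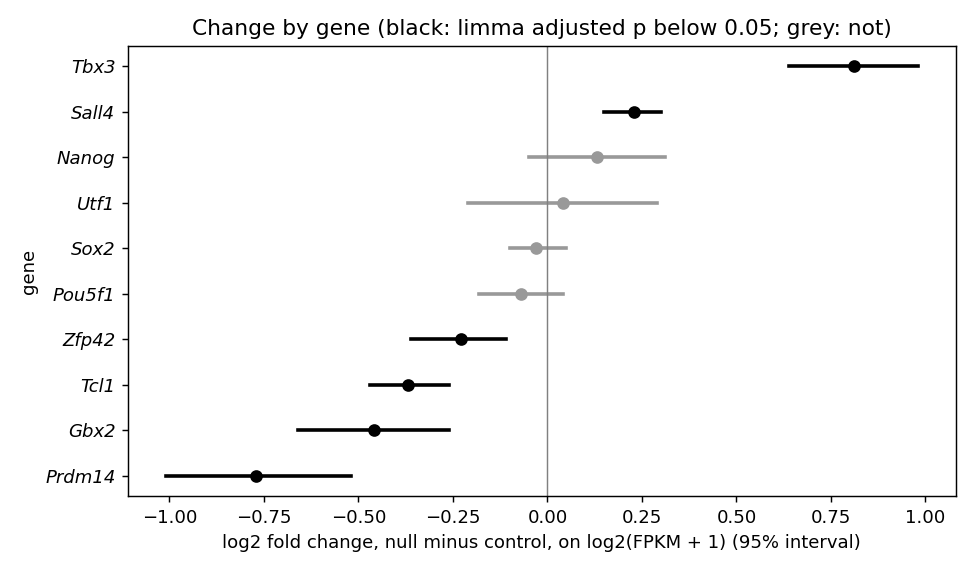
Log2 fold change of null against control on log2(FPKM + 1), with its 95% interval, for the 10 genes, in black where the limma adjusted p was below 0.05 and in grey otherwise. The intervals of Pou5f1, Sox2, Nanog and Utf1 include 0, and those of Tbx3 at 0.81 and Prdm14 at -0.77 are the farthest from it on either side.

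Tbx3, a T-box factor that sustains self-renewal downstream of LIF and PI3K signals, rose the most. Its control values were 15.5, 14.7 and 14.5 FPKM and its null values 29.8, 26.0 and 24.9 FPKM. Every null library was above every control library. The ratio of the group means was 1.81, and the log2 fold change 0.81 (SE 0.07, limma adjusted p = 6.45e-04). By exact permutation of the libraries (two-sided) p was 0.1, the lowest value 3 against 3 libraries allow, and the same value holds for each of the 6 called members. About 560 fragments in control and 1000 in null libraries lie behind these values. The antisense gene Tbx3os1 overlaps Tbx3, and Gm19553, Gm14261 and D130058E05Rik overlap Pou5f1, Sall4 and Gbx2 from the opposite strand. The sources used here do not say whether strand was used in counting, so for these 4 members reads of the overlapping gene cannot be told apart.

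Sall4, a spalt zinc-finger factor that binds with OCT4 and NANOG, rose by a small and even amount. The values were 118, 119 and 115 FPKM in control and 137, 135 and 139 FPKM in null libraries. The groups were separate by more than the spread of either, with CVs of 1.94% and 1.69%. The mean ratio was 1.17 and the log2 fold change 0.23 (SE 0.03, limma adjusted p = 0.0038). Its paralog Sall1 went the other way, from 56.4 ± 1.32 to 42.9 ± 1.5 FPKM (SD, n = 3), and the ratio of Sall4 to Sall1 moved from 2.08 ± 0.0879 to 3.19 ± 0.101 (exact two-sided permutation p = 0.1, the smallest possible).

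Prdm14, a PR-domain factor that keeps ES cells naive by holding down the de novo DNA methyltransferases and FGF receptors, fell the most. The control values were 10.7, 10.4 and 11.1 FPKM, the null values 7.12, 5.23 and 5.47 FPKM. Null replicate 1 was the highest of its group and still below every control. The null mean was 44.6% lower, a log2 fold change of -0.77 (SE 0.10, limma adjusted p = 0.00275). It was the least abundant member, with about 120 fragments per null library, which alone would give a CV of 9.22%; the CV observed in null libraries was 17.3%.

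Gbx2, a homeobox gene induced by LIF through STAT3, fell as well. Its levels were 14.3, 15.5 and 15.9 FPKM in control and 12.2, 9.82 and 10.5 FPKM in null libraries. No null library reached the lowest control. The log2 fold change was -0.46 (SE 0.08, limma adjusted p = 0.00809), and the null mean was 28.9% lower. Tbx3 and Gbx2, which overlapped in control at a Tbx3 to Gbx2 ratio of 0.982 ± 0.0877, stood at a ratio of 2.49 ± 0.144 in null libraries (SD, n = 3).

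Tcl1, which encodes a coactivator of the kinase AKT and is a direct target of OCT4 in ES cells, was at 77.3, 79.7 and 73.2 FPKM in control. The null libraries were at 61.5, 57.4 and 59.1 FPKM, all below the lowest control. The fall was 22.7% of the control mean (log2 fold change -0.37, SE 0.05, limma adjusted p = 0.00209). Of the genes listed for the PI3K and AKT axis (11 tested), Akt2 rose from 26.9 to 30.1 FPKM and Pik3ca, the catalytic subunit, fell from 7.16 to 5.75 FPKM. The other 9 did not pass, and the median was -0.13. These 9 include Pdk1, a pyruvate dehydrogenase kinase gene that is not part of the axis, besides Pdpk1, which is.

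Zfp42, the gene of the zinc-finger protein REX1 and a common marker of the naive state, was the most abundant member in control at 611, 578 and 600 FPKM. The null libraries had 482, 548 and 493 FPKM. They lay below every control, with null replicate 2 the closest to them. The log2 fold change of -0.23 (SE 0.05) had a limma adjusted p of 0.0188. The call was lost without control replicate 1 (0.0681), control replicate 3 (0.0556) or null replicate 3 (0.0621).

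Ratios within a library do not depend on how the libraries were scaled. Relative to Pou5f1 in the same library, Sox2 was at 50.6% ± 1.74 in control and 52.2% ± 1.41 in null libraries (SD, n = 3), with overlap. Nanog was at 41.8, 42.3 and 41.4% of Pou5f1 in control against 50.6, 49.8 and 44.2% in null libraries, so that by this measure the groups of Nanog did not overlap. In FPKM they did overlap, and Pou5f1, the divisor, was below every control in null replicates 2 and 3. Sall4 was at 21.7% to 21.8% of Pou5f1 in control against 25.1% to 27.9% in null libraries. Tbx3 went from 2.77% ± 0.0843 to 5.24% ± 0.246, Prdm14 from 1.99% ± 0.108 to 1.15% ± 0.133, Gbx2 from 2.83% ± 0.193 to 2.11% ± 0.125 and Tcl1 from 14.3% ± 0.304 to 11.6% ± 0.281, each without overlap. Zfp42 was at 113, 105 and 114% of Pou5f1 in control against 88.4, 111 and 98.5% in null libraries, and here the groups overlapped. The exact two-sided permutation p of this last ratio was 0.2.

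**Figure D3:**
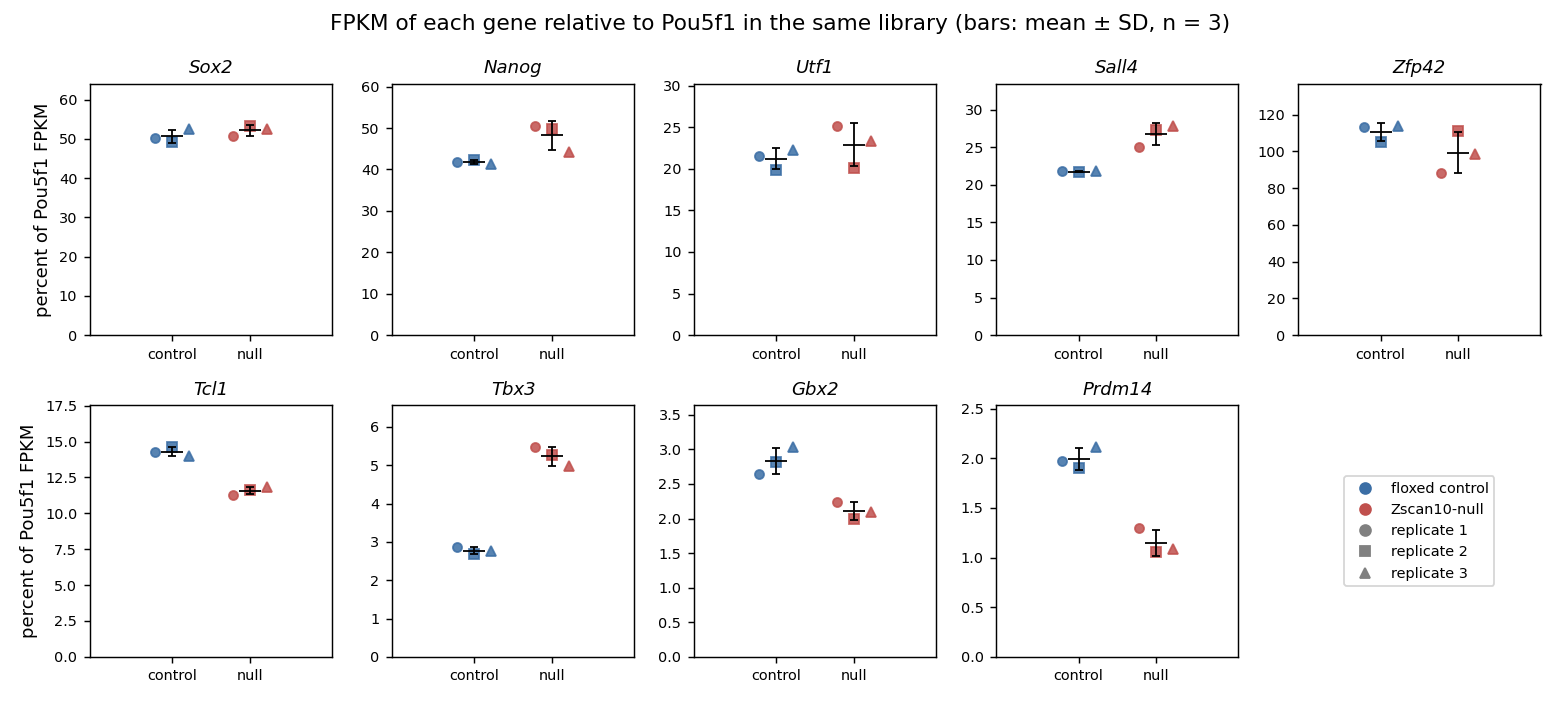
FPKM of 9 genes as a percentage of Pou5f1 FPKM in the same library, each panel starting at 0, with control in blue, null in red and bars for the mean ± SD (n = 3). Tbx3 rises from 2.77% to 5.24% and Prdm14 falls from 1.99% to 1.15%, while Sox2, Utf1 and Zfp42 overlap between the groups.

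Among 30 other genes of the naive network, 6 rose, 11 fell and 13 did not pass, with a median log2 fold change of -0.02 against -0.003 for all tested loci. Read against 12.8% and 12.4% called in each direction, 6 of 30 were called higher and 11 of 30 lower. With median centring the background was uneven, with 1718 loci higher and 1214 lower, and 6 network genes were higher and 9 lower. Without control replicate 2, 11 of the 17 calls remained, 5 higher and 6 lower, and those of Il6st, Jam2, Klf5, L1td1, Tet2 and Tfcp2l1 were lost. The falls included the orphan nuclear receptor gene Nr0b1 (DAX1), from 71.1 ± 4.25 to 39.9 ± 3.26 FPKM, and Dppa3 (Stella), from 29.7 ± 1.75 to 15.8 ± 3.28 FPKM. Mycn fell from 83.1 ± 2.32 to 57.9 ± 1.13 FPKM and Stat3, which carries the LIF signal to Gbx2 and others, from 27.2 ± 0.358 to 20.5 ± 1.09 FPKM. Klf2, Klf5, Tfcp2l1, Tet2, Esrrb, Jam2 and Il6st were the other genes that fell.

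The rises in this list were led by Fbxo15, an F-box gene bound by OCT4 and SOX2, from 200.3 ± 6.06 to 294 ± 9.56 FPKM. Myc rose from 11.0 ± 0.537 to 15.1 ± 1.83 FPKM, Dppa2 from 108 ± 2.39 to 141 ± 7.01 FPKM and Zfp281 from 36.0 ± 1.08 to 43.8 ± 2.44 FPKM, with Rif1 and L1td1 the remaining members that rose. The 13 that did not pass had null to control ratios from 0.879 for Lifr to 1.09 for Nr5a2. For Tdgf1 (0.898), Fgf4 (1.08) and Nr5a2 the groups did not overlap, and Klf4 was at 0.892 with overlap, while Tet1, Nacc1, Dppa4, Dppa5a, Etv5 and Trim28 lay between 0.981 and 1.02. Dppa5a, at 1807 and 1792 FPKM, exceeded every member in level.

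**Figure D4:**
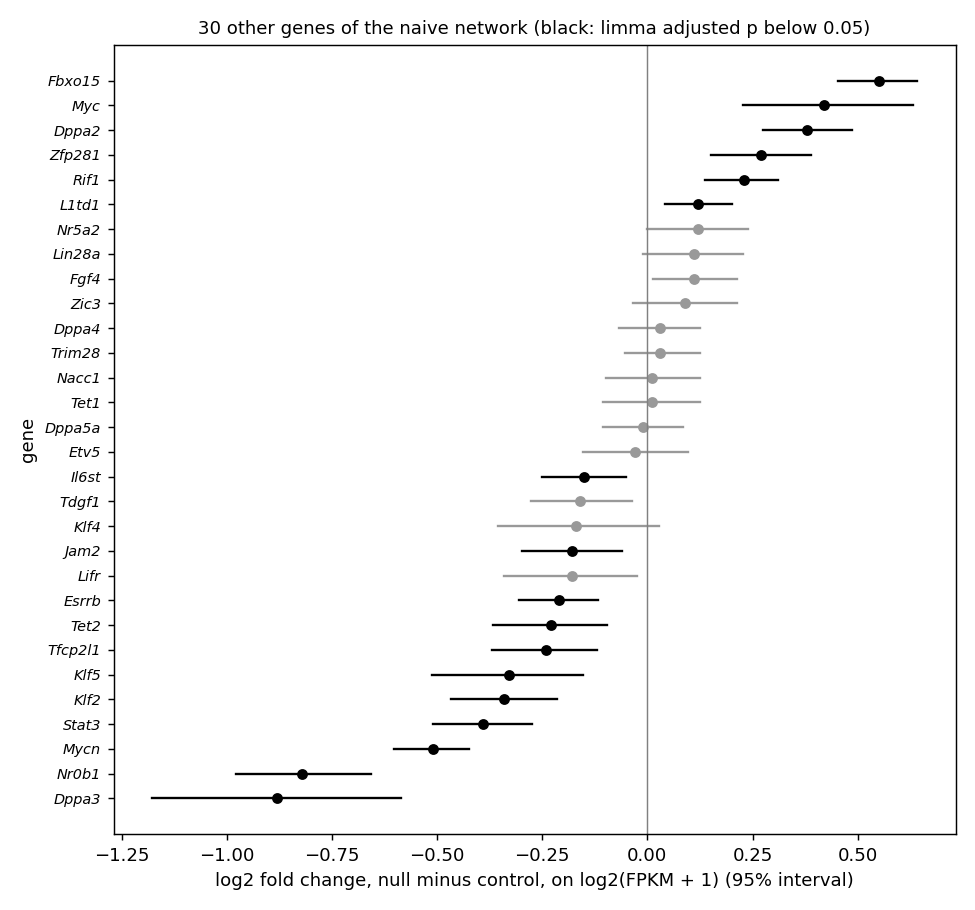
Log2 fold change of null against control on log2(FPKM + 1), with its 95% interval, for 30 further genes of the naive network, in black where the limma adjusted p was below 0.05. Changes run from -0.88 for Dppa3 to 0.55 for Fbxo15, with 11 black points left of 0 and 6 right of it.

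The classical targets of OCT4 and SOX2 (8 tested, of which Nanog, Utf1 and Zfp42 are also members) were mixed, with 1 higher, 3 lower and a median of 0.01. Fbxo15 rose, as given above. The Nodal inhibitor gene Lefty1 fell from 57.0 ± 2.08 to 32.2 ± 6.04 FPKM and the secreted phosphoprotein gene Spp1 from 244 ± 5.86 to 163 ± 26.9 FPKM, along with Zfp42. Fgf4, whose enhancer first showed the joint element at work, was at 69.6 and 75.5 FPKM (limma adjusted p = 0.0916).

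Of 5 genes that PRDM14 is known to hold down, 4 rose and 0 fell. Dnmt3l, the cofactor of the de novo methyltransferases, read 193, 199 and 196 FPKM in control against 325, 294 and 295 FPKM in null libraries. Dnmt3a was at 15.2, 15.7 and 15.4 FPKM and at 23.1, 24.6 and 25.5 FPKM. Dnmt3b was at 81.7, 79.6 and 76.9 FPKM and at 116, 109 and 122 FPKM. For these 3 genes every null library was above every control, with mean ratios of 1.55, 1.58 and 1.46 (limma adjusted p = 3.57e-04, 5.21e-04 and 8.57e-04). Fgfr1 rose from 18.5 ± 0.436 to 22.5 ± 1.07 FPKM (limma adjusted p = 0.00993), and Fgfr2, at 5.98 ± 0.239 and 6.32 ± 1.24 FPKM, did not pass. The median of the 5 was 0.54. Cbfa2t2, the corepressor that PRDM14 binds, was at 20.8 and 22.9 FPKM (limma adjusted p = 0.0836). Dnmt3a and Dnmt3b are also markers of the formative epiblast, and whether the level of Prdm14 has a part in theirs was not tested.

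**Figure D5:**
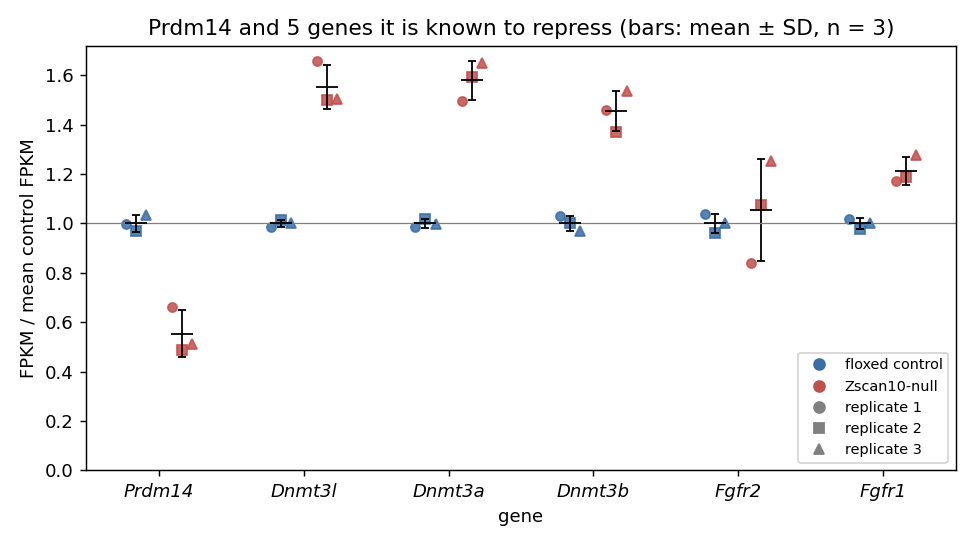
FPKM of Prdm14 and of 5 genes it is known to repress, divided by the mean of the 3 control libraries, with control in blue, null in red and bars for the mean ± SD (n = 3). Prdm14 lies below 1 and Dnmt3l, Dnmt3a, Dnmt3b and Fgfr1 above 1 in every null library, while Fgfr2 falls on both sides.

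Paralogs of the members did not share one direction. Of 28 found, 14 reached the minimum level, 5 of which rose and 3 fell, with a median of 0.02. Sall2 rose from 2.79 ± 0.51 to 5.65 ± 0.933 FPKM and Sox15, a SOX gene of ES cells that can bind with OCT4, from 10.1 ± 0.696 to 18.0 ± 1.31 FPKM. Sox21 and Prdm1 fell, Sox21 by 0.69 and Prdm1 by 0.55 on the log2 scale. Yy1 and Yy2, the relatives of Zfp42, rose by 0.15 and 0.36 on the log2 scale, against the direction of Zfp42. Pou3f1 rose from 2.49 ± 0.4 to 3.86 ± 0.346 FPKM. Pou2f1, Prdm10, Prdm15, Sox1 and Mtcp1 did not pass, with null to control ratios of 0.873 for Sox1 to 1.06 for Prdm10. Sall3 was at 0.953 to 1.22 FPKM in control against 0.233 to 0.436 FPKM in null libraries, with means of 1.05 and 0.305 FPKM. It missed the minimum through its low null values, so the count of falls leaves it out. Tbx1, Tbx2, Tbx4, Tbx5, Tbx20, Gbx1, Sox3 and Pou5f2 stayed below 1 FPKM in every library. The Tcl1b genes next to Tcl1 were near the floor: Tcl1b5 was listed at 0 in every library, and the others did not exceed 0.606 FPKM.

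Markers of other cell types were set beside these changes, because in bulk libraries fewer cells of a type and less RNA per cell cannot be told apart. Of 10 tested genes of the formative and primed epiblast, 4 rose and 2 fell (median 0.06), and Otx2 was at 24.9 and 24.1 FPKM. Sall2, Dnmt3a, Sox11 and Lef1 changed most, the last 2 falling. Fgf5 was below 1 FPKM on average in both groups, but stood higher in every null library (0.582 to 1.05 FPKM) than in control (0.365 to 0.527 FPKM). T, Foxa2, Cer1 and Sox3, also under the minimum for the test, overlapped. The list summed to 169 to 177 FPKM in control and 203 to 222 FPKM in null libraries. Without Dnmt3a and Dnmt3b, which are also PRDM14 targets, the other 13 genes summed to 76.4 to 81.9 FPKM in control against 70 to 79.2 FPKM in null libraries, with overlap. In the two-cell-like list, genes of the 2-cell embryo and of a rare ES cell state, 12 of 14 tested rose and 0 fell (median 0.96), with Usp17le, Usp17la, Tdpoz3 and Gm8300 leading, and the sum went from 61.5 to 66.4 FPKM in control to 125 to 167 in null libraries. These are multi-copy families whose copies can share reads. Tdpoz3 and Usp17ld, which were called, and Zfp352, which was not, averaged 0.831, 0.599 and 0.944 FPKM in control. They reached the minimum only through the null libraries, so the minimum favoured rises in this count and median.

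Trophectoderm genes rose for 4 of 7 tested and fell for 0 (median 0.49), with Eomes, Esx1, Hand1 and Tfap2c, while Cdx2 averaged 0.155 and 0.242 FPKM. Esx1 and Hand1 averaged 0.459 and 0.577 FPKM in control and reached the minimum only through the null libraries. The minimum therefore favoured rises in this count and median. That list summed to 51.1 to 56.8 FPKM in control and 61.0 to 75.2 FPKM in null libraries. Primitive endoderm genes had 0 of 2 tested called (Dab2 and Gata4), and the 10 genes summed to 6.42 to 8.04 and 4.48 to 6.86 FPKM. Dab2 still stood lower in every null library, at 1.72 to 2.57 FPKM in control against 0.903 to 1.62 FPKM (limma adjusted p = 0.0518), while Gata4 overlapped. Neuroectoderm genes rose for 0 of 5 tested and fell for 2, Tubb3 and Pax6 (median -0.20, sums 79.6 to 88.5 and 61.7 to 70.1 FPKM). Among feeder fibroblast genes 1 of 4 tested rose (Thy1) and 2 fell (Acta2 and Tagln), with a median of -0.52. Their sum was 17.6 to 21.0 FPKM in control and 9.26 to 15.4 FPKM in null libraries, with Lum at 0 in every library but null replicate 2. Both type I collagen genes stood lower in every null library, at mean levels under the minimum for the test. Col1a2 was at 0.921 to 1.31 FPKM in control against 0.0492 to 0.111 FPKM in null libraries, and Col1a1 was at 0.587 to 0.826 against 0.054 to 0.107 FPKM. Postn was at 0.0752 to 0.0822 FPKM in control and listed at 0 in every null library, while Col3a1, Col5a1, Col6a1 and Col6a2 overlapped. The part of these cell types in the changes of the members was not tested.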

How the data were processed

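Ribosomal-RNA-depleted total RNA of 6 mouse ES cell libraries was sequenced, 3 per group, and 1 file per library gives a value per locus with symbol and RefSeq accession, per the file headers. TopHat, Cuffdiff, Trim Galore, FastQC and mm10 are named in the submitters' processing notes, without versions or roles. The deposited values were taken as FPKM made by the authors, because they are not whole numbers and their totals differ between libraries (664555 to 699401); no header states the unit, and it is not given whether the libraries were scaled to each other. The relative depths were taken from the most common ratio of low values between each library and control replicate 1. After scaling by these depths, 84% of 1304 low values were whole multiples of the smallest within 1%. Such values and the transcript lengths of GENCODE M21 gave the fragment estimate (quartiles 7280000 and 7960000). Fragment numbers per gene are therefore rough and cover counting error only.

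The test was limma 3.58.1 in R 4.3.3 (eBayes with a mean-variance trend, two-sided) on log2(FPKM + 1), for loci whose mean reached 1 FPKM, without covariates, with Benjamini-Hochberg adjustment over all of them at 0.05. It was also run on simulated data with independent noise per locus, an outcome that is not reported here and on which no result rests. Single values were also tested by exact permutation. The members and lists (other naive network, paralogs, PRDM14 targets and partner, OCT4 and SOX2 targets, PI3K and AKT, and 6 cell type lists) were chosen with earlier results of these data known, and no test was made over a list. The genes named are all members, Zscan10, up to 4 called genes of each list with the largest change, the PRDM14 and paralog genes, and the 2 loci per member with the most similar profile; other genes were named after their values were seen, and a paralog and a similar locus are not reported here. Alternatives changed the pseudocount (0.1), the minimum (none or 5 FPKM), the scaling, the trend, a replicate block and each library in turn.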

Additional observations from a re-analysis of the deposited data

How the results depend on the processing

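Over 13 alternatives, Tbx3, Sall4, Prdm14, Gbx2 and Tcl1 stayed called in the same direction, with log2 fold changes of 0.73 to 0.86, 0.17 to 0.25, -0.88 to -0.69, -0.54 to -0.40 and -0.42 to -0.34. Pou5f1, Sox2 and Nanog stayed short of the threshold, at lowest adjusted p-values of 0.0623, 0.0781 and 0.0593. Utf1 reversed with quantile normalization (-0.02) and without null replicate 1, and ran from -0.08 to 0.16 as single libraries were left out. Zfp42 kept its sign at -0.31 to -0.20, and its call was lost in 4 alternatives, of which 3 left out a library; the cause was not tested. Leaving out 1 library gave 1697 to 2903 loci called, 5 to 6 members and 11 to 20 of the other network genes; fewer libraries were fitted there. Scaling moved the median change of all loci from -0.003 to 0.0188 with median centring.

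With the replicate number as a block 2264 loci and 5 members were called, the loss being Zfp42 (log2 fold change -0.23, adjusted p = 0.0512). Deviations of same-numbered libraries correlated at -0.00242, 0.108 and 0.0527, and not every library correlated best with its own number, so the numbers were not taken to pair the libraries. The values rest on few fragments for Prdm14 and Gbx2, about 120 and 180 per null library.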

Other observations

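Of 79 tested loci within 500 kb of a member, 17 were called (21.5%, against 25.2% of all tested loci), 9 higher and 8 lower, and they lay near 5 of the 10 members. Near Pou5f1, 5 of 41 rose and 3 fell. Near Sox2, Zfp42, Sall4, Tbx3 and Utf1, 0 of 1, 2, 3, 2 and 8 were called, although Zfp42, Sall4 and Tbx3 themselves were. Of 9 neighbours of Nanog on chromosome 6, 3 fell and 1 rose. There Dppa3 fell from 29.7 to 15.8 FPKM (limma adjusted p = 0.00327), Phc1, a Polycomb gene, from 109.5 to 90.2 FPKM (0.00257) and Gdf3, a TGF-beta family ligand of the epiblast, from 49.5 to 42.1 FPKM (0.032), and Necap1 rose from 24.2 to 29.1 FPKM (0.00974), while Nanog between them did not pass. Next to Zfp42 the genes Triml1 and Triml2 had 65.9 and 148 FPKM in control against 58.8 and 137 FPKM in null libraries (limma adjusted p = 0.0821 and 0.0719). Near Gbx2, Agap1 fell from 8.75 to 6.58 FPKM and Cxcr7, a chemokine receptor gene, rose from 1.84 to 4.19 FPKM, the only neighbours tested there. Of 4 loci near Prdm14, Sulf1 fell with it from 21.1 to 15.2 FPKM (limma adjusted p = 0.00566) and Gm17644 rose from 149 to 218 FPKM (0.00257). Near Tcl1, Syne3, which reached the minimum only through the null libraries, rose from 0.667 to 1.7 FPKM, and the other 6 did not pass.

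The profiles most like those of the members over the 6 libraries were found by the root-mean-square difference of log2(FPKM + 1) after centring each gene on its mean, over 7662 loci of at least 5 FPKM. For Tbx3 these were Acad11 (0.0376) and Sox15 (0.0395), and 17 loci lay within 0.1. For Prdm14 they were Ube2e1 (0.045) and the collagen gene Col4a1 (0.048), with 26 loci within 0.1. Gbx2 was closest to P4ha1 (0.026) and Esyt1 (0.0354), with 139 loci within 0.1, and Tcl1 to Ski (0.0103) and Ltbp4 (0.0305), with 536. Within 0.1 of Utf1 there were 164 loci, with Dab1 (0.0306) the closest, and within 0.1 of Nanog 779, led by Phf13 (0.0251) and Cenpl (0.0324). Zfp42 had 1011, led by Ftl1 (0.0127) and Pnrc2 (0.0228), and Sall4 had 1978, led by Ncapd2 (0.0135) and Atp5l (0.0184). Pou5f1 had 2964, led by Pdk1 (0.0161) and Eif3g (0.0165), and Sox2, whose profile was nearly flat, had 3724, led by Vps13d (0.0099) and Kif4 (0.013).

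Within the null group, replicate 1 held the highest value for 8 of the 10 members (Sall4 and Zfp42 were the exceptions), while it was highest for 36% of all tested loci. The CV was larger in null than in control libraries for 8 of the 10 members and for 59.2% of tested loci. The median CV of the members was 3.21% in control and 8.22% in null libraries, against 5.54% and 6.89% for all tested loci. The labels give no difference between the null libraries, and the source of this spread was not tested.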
